A study of Ovis aries with 8 samples.

Results

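This account follows 3 immune genes in the hypothalamus of fetal sheep: OVAR-DQA1, FCER1G and CYBB. They were taken by name from the gene names and descriptions of the array, which gave 3 of its 992 named genes and 7 of its 15008 probes: 2 for OVAR-DQA1, 2 for FCER1G and 3 for CYBB. One CYBB probe, A_70_P068061, carries no gene symbol and was included because its description names the gp91-phox protein that CYBB encodes. The study took 4 sets of twin sheep fetuses. In each set 1 fetus received estradiol-3-sulfate, a conjugated estrogen, at 1 mg per day into a lateral cerebral ventricle through a catheter fed by an osmotic mini-pump, and its twin was the control. The labels describe the controls both as untreated and as infused with saline vehicle, and give the infusion as 7 to 12 days in one place and 7 to 10 in another. The fetuses were operated on at a gestational age of 120 to 127 days and their hypothalami were taken at 130 to 134 days, with no genotype stated. The fetuses are called E1 to E4 (estradiol sulfate) and V1 to V4 (vehicle) after the replicate numbers of the labels, which do not say which fetuses were twins.

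MHC class II molecules are pairs of an alpha and a beta chain that present peptides to CD4+ T cells. In the brain they are carried mainly by activated microglia, by macrophages at the brain's borders and by dendritic cells. OVAR-DQA1 encodes the alpha chain of the sheep DQ molecule, and sheep MHC haplotypes differ in which DQ genes they carry. FCER1G encodes the Fc receptor gamma chain, an ITAM adaptor through which Fc receptors and related receptors of myeloid cells signal. CYBB encodes the catalytic subunit of the phagocyte NADPH oxidase, which makes superoxide and is found in microglia, macrophages and neutrophils.

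The probes are 60-base sequences, and what each one can tell apart matters for the readings below. The 2 OVAR-DQA1 probes lie in different stretches of the transcript, starting at base 577 and at base 1088 of the target as the array design numbers it. The probe at base 577, A_70_P053731, called the mid-transcript probe here, is nearly the same sequence as a probe for the neighbouring gene OVAR-DQA2. The 2 sequences are shown because they share 56 of 60 bases, with the bases that differ in capitals:

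OVAR-DQA1 mid-transcript probe: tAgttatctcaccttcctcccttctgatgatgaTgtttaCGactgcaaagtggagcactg

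OVAR-DQA2 mid-transcript probe: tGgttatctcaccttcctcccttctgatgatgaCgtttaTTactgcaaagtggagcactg

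Counted from 1 at the 5′ end of the probe, the differences from the OVAR-DQA1 to the OVAR-DQA2 probe are A2G, T34C, C40T and G41T. The probe at base 1088, A_70_P016751, is called the 3′ probe. All 3 of its reading frames hold a stop codon, as in 17.6% of the 15008 probes, and it contains the polyadenylation motif AATAAA, as do 5.63% of the probes (searched on the probe strand only). Its closest match among the other 15007 probes shared 31 of 59 aligned bases. A stretch of 30 bases around the motif (in capitals) is shown beside the same kind of stretch from the first FCER1G probe, A_70_P002706:

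OVAR-DQA1 3′ probe, bases 28 to 57: atccatggaagaAATAAAtgcctttatgag

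FCER1G first probe, bases 22 to 51: gggactaacatcAATAAAgacaccatagac

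The second FCER1G probe, A_70_P002707, is shifted from the first by 1 base and shares 59 bases with it, so the pair reads 1 site. The CYBB probes A_70_P021811 and A_70_P021812 are likewise shifted by 1 base. The gp91-phox probe A_70_P068061 reads another stretch of CYBB. The 2 CYBB stretches are printed whole because their readings differed:

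CYBB gp91-phox probe: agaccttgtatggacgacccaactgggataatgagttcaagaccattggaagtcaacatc

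CYBB first partial-cds probe: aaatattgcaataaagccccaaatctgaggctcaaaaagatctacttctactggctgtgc

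Signals are given as log2 of the processed intensity minus log2 of the array's 75th percentile, so 0 is the array's 75th percentile and a difference of 1 is a doubling. Agilent's flag for a spot well above background separates fetuses with signal at a probe from those without. The 75th percentile of intensity lay between 1584 and 2251 on the treated arrays and between 969 and 1610 on the control arrays. Probes with signal by that flag made up 77.0% to 83.1% of each treated array and 67.8% to 77.3% of each control array. All 8 arrays were on 1 slide, the treated ones on one side of it and the controls on the other, so position and treatment cannot be told apart. Of 10 defining genes of hypothalamic neurons, 8 were on the array by name and all 8 were measured, 5 of them well above background in all 8 fetuses (SST, OXT, NPY, POMC and PMCH), whereas AGRP, GHRH and GNRH1 were not in 2 fetuses each. Of 11 defining microglial genes only TYROBP and ITGAM were on the array by name. TYROBP, the adaptor of TREM2, was well above background in all 8 fetuses, and ITGAM, a subunit of complement receptor 3, in 7. In whole tissue, fewer cells of a type and less RNA per cell cannot be told apart.

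The 3′ probe of OVAR-DQA1 had signal in some fetuses and none in others, and the split did not follow treatment fully. Its level was -3.48 in E1, -3.36 in E2, -2.71 in E3 and -0.16 in E4. In the controls it was -3.17 in V1 and -1.96 in V2, but -7.57 in V3 and -6.96 in V4, both not well above background. All 4 treated fetuses and 2 of 4 controls therefore had signal, and the 2 controls with signal lay within the range of the treated fetuses. In unscaled intensity, the 6 fetuses with signal ranged from 152 to 1418, against 6.80 in V3 and 7.81 in V4. As the limit for V3 and V4, the dimmest spot of each array that was well above background was taken. By that limit E4 was at least 35.3-fold higher than V3 and at least 22.5-fold higher than V4. E1, the fetus with the lowest signal, was at least 3.54-fold and at least 2.26-fold higher. The limit is nominal, since a CD40 probe missed the flag in V3 at -5.00, above the dimmest flagged spot there (-5.30).

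By count of fetuses with signal, 4 of 4 against 2 of 4 gave p = 0.429 (two-sided Fisher's exact test), where the smallest p that 4 against 4 allows is 0.0286. Across the array, 19.3% of the 15008 probes were well above background in 1 to 7 fetuses, as were 3 of the 7 member probes. The pattern of 4 treated and 2 control fetuses was seen at 2.17% of probes (326), and the reverse of 2 treated and 4 control fetuses at 0. Most treated arrays were brighter than the controls, though V1, with a 75th percentile of 1610, was above E4 with 1584. The part of array brightness in these counts was not tested.

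**Figure D1:**
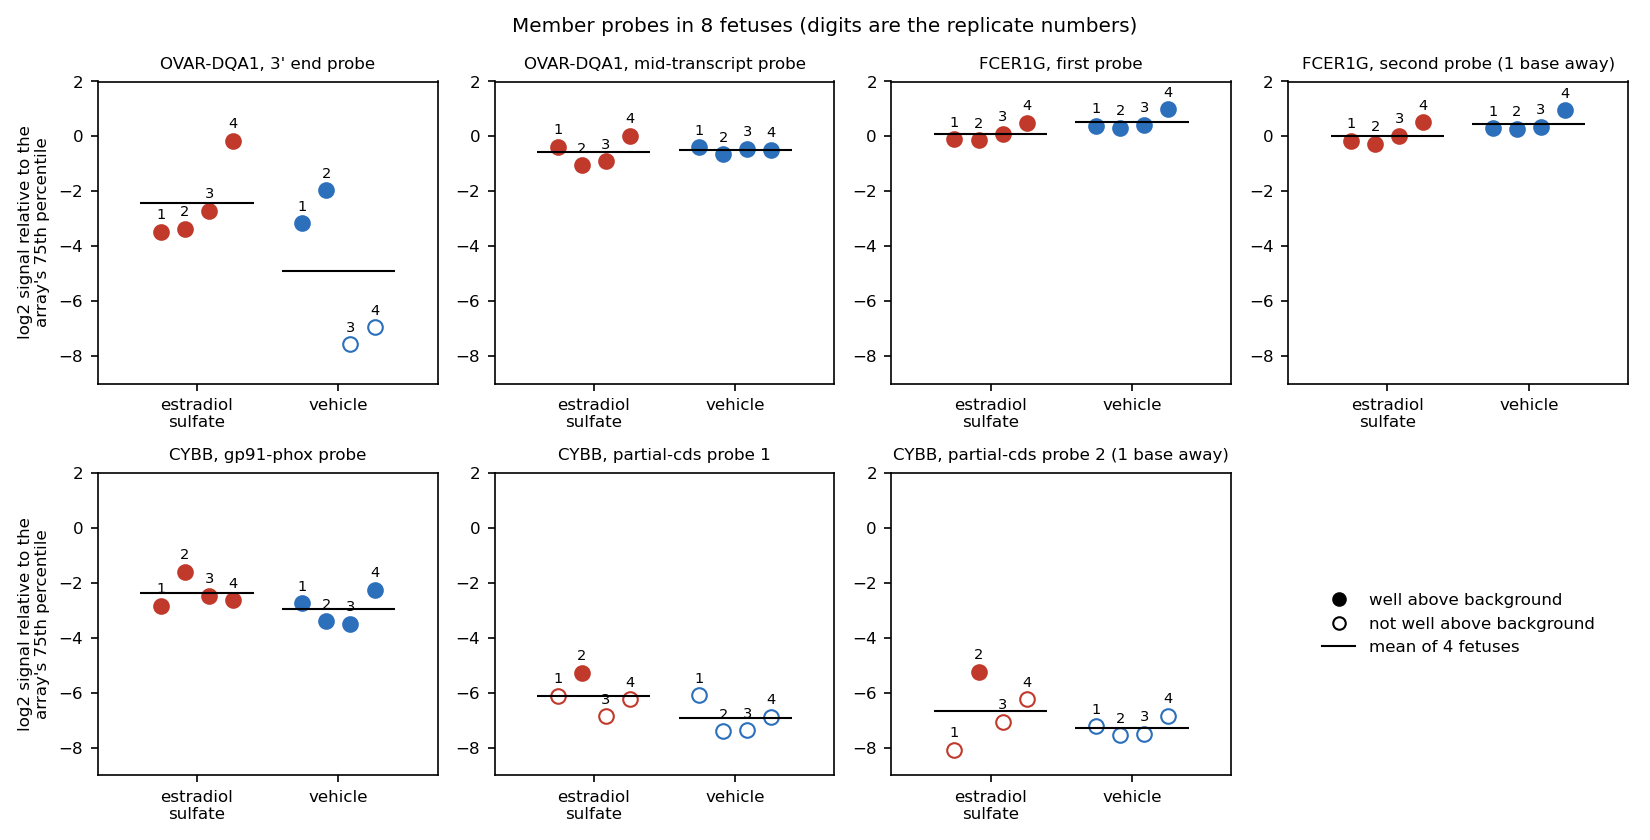
Log2 signal relative to the array's 75th percentile (vertical axis) for the 7 probes of OVAR-DQA1, FCER1G and CYBB in 4 estradiol sulfate and 4 vehicle fetuses. Points are fetuses with their replicate numbers, open where the spot was not well above background, and lines are group means; the 3′ probe of OVAR-DQA1 is open in V3 and V4 only.

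The mean level of the 3′ probe was -2.43 ± 1.55 (SD, n = 4) after estradiol sulfate and -4.91 ± 2.77 (SD, n = 4) in controls. The difference was 2.49 ± 1.28 (SE), with limma's adjusted p = 0.611 and an exact permutation p = 0.257 (two-sided, 70 splits, smallest possible 0.0286). The groups overlapped and neither test was passed, and V3 and V4 enter at readings not well above background. It fell to 1.38 when the background was modelled by normexp with quantile normalization, and to 1.60 without V3. Over all 11748 probes tested, 0% passed an adjusted p of 0.05 in limma. At an unadjusted p under 0.05 limma called 9.06%, with 708 probes (6.03%) higher and 356 (3.03%) lower after treatment. With arrays scaled to their medians, 345 of 1098 such probes were higher, and the median difference of all probes moved from 0.04 to -0.06.

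The mid-transcript probe of OVAR-DQA1 gave another picture. It was well above background in all 8 fetuses, at -0.38 in E1, -1.04 in E2, -0.91 in E3 and 0.03 in E4. The controls were at -0.40 in V1, -0.66 in V2, -0.44 in V3 and -0.49 in V4. V3 and V4, without signal at the 3′ probe, were therefore in the middle of the 8 here. The difference between groups was -0.08 ± 0.23 (SE; limma adjusted p = 0.952, exact permutation p = 0.857), and it turned to 0.08 without E2 and to 0.03 without E3. The highest fetus was 2.11-fold above the lowest, against at least 35.3-fold by the nominal limit at the 3′ probe. The OVAR-DQA2 probe that shares 56 of its bases ran close to it, with levels from -0.81 in E3 to -0.10 in E4. How much of the mid-transcript signal came from OVAR-DQA1 and how much from OVAR-DQA2 cannot be told apart at 4 mismatches.

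Spread between fetuses can be ranked only where all 8 were measured, which holds for 9989 probes with a median range of 1.60-fold and not for the 3′ probe. By the root mean square difference of gene-centred levels over 8 fetuses, the nearest to the 3′ probe were TTR, CA1 and EP4d, among the 35 named probes whose SD was 0.5 to 2 times its own. Their distances of 2.19 to 2.27 compare with an SD of 2.47 for the 3′ probe over the 8 fetuses. For the mid-transcript probe, by the same rule, the nearest were G6PC1 at 0.10, the OVAR-DQA2 probe at 0.13 and HRH2.

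**Figure D2:**
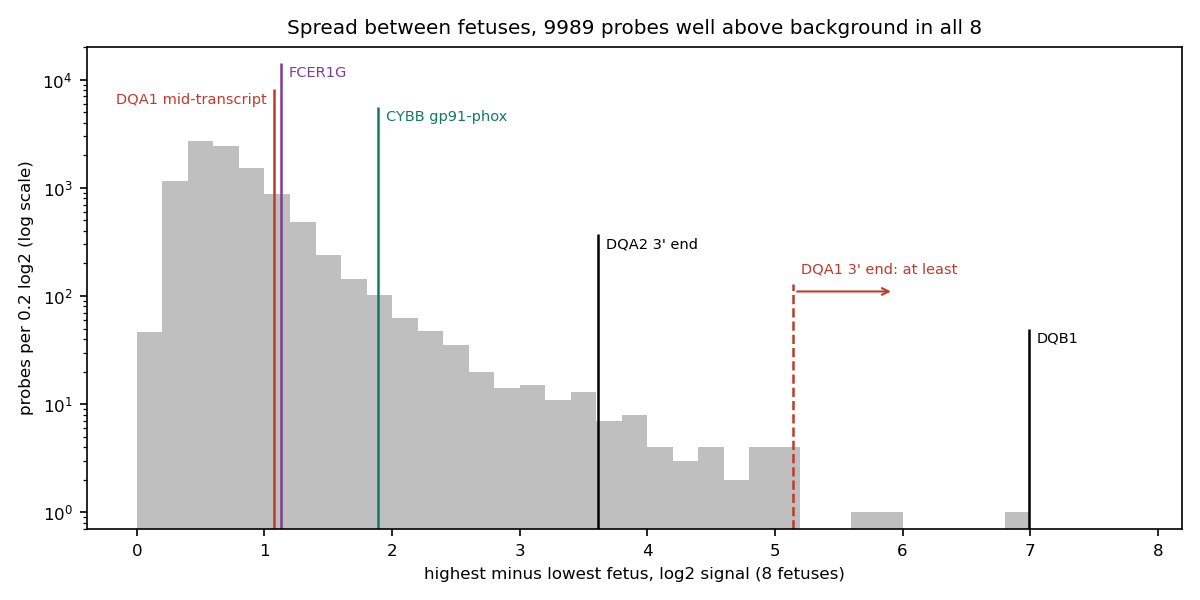
Histogram of the difference between the highest and the lowest of 8 fetuses, in log2 signal (horizontal axis), over the 9989 probes well above background in all 8; the vertical axis is the number of probes on a log scale. Solid lines mark measured probes, with OVAR-DQB1 the widest at 6.99. The dashed line with an arrow is the nominal lower bound of 5.14 for the 3′ probe of OVAR-DQA1.

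Other chains of MHC class II did not share the split of the OVAR-DQA1 3′ probe: OVAR-DQB1, OVAR-DRA, OVAR-DQA2, 2 probes of OVAR-DRB1 and the OVAR-DRB3 probe were well above background in all 8 fetuses, V3 and V4 included. OVAR-DQB1, the beta chain that pairs with DQ alpha, stood at 2.14 in E1, -2.87 in E2, 1.61 in E3 and 1.70 in E4. In controls it was at 2.34 in V1, -0.15 in V2, 2.50 in V3 and 4.13 in V4. Its 127-fold range was the widest of the 9989 probes measured in all 8 fetuses, but its low fetuses were E2 and V2, both with signal at the OVAR-DQA1 3′ probe, and its highest was V4, which had none. The difference was -1.56 ± 1.19 (SE; limma adjusted p = 0.748). OVAR-DRA, the alpha chain of the DR molecule, was at -0.31 in E1, -0.38 in E2, -0.35 in E3 and 1.58 in E4, and at -0.17, 0.28, -0.01 and 2.17 in V1 to V4. The 2 highest fetuses were thus 1 of each group. A probe near the 3′ end of OVAR-DQA2 (start at base 954) had the same 2 fetuses on top, with 0.02 in E4 and 1.27 in V4 against -2.35 to -1.39 in the other 6.

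The DR beta chains were alike in this respect. The first OVAR-DRB1 probe, A_70_P016821, ranged from -2.35 in E2 to 0.36 in V4, and E4 was second at -0.98. A second OVAR-DRB1 probe, A_70_P024151, ranged from -4.72 in V1 to -2.85 in V4, with E4 second at -3.21. A probe described as OVAR-DRB3 had 0.07 in V4 and -0.20 in E4, with the other 6 fetuses between -1.91 and -1.21. Another OVAR-DRB1 probe passed the background flag in 2 treated fetuses and no control, and DYA, a class II alpha chain gene of ruminants, in none of 8. CTSS, the protease that trims the invariant chain, was highest in E4 at 2.38 and V4 at 2.07, with the others from 1.29 to 1.79. LGMN, an asparagine endopeptidase of the same pathway, had another order: at its first probe V4 was highest at 2.40 and E4 lowest at 1.91, and at its second V4 was at 2.71 and E4 at 2.38, with only E1 lower. LGMN differed by -0.14 ± 0.11 (SE) at the second, brighter probe.

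The list of class II genes and their processing enzymes had 8 genes on the array by name, of which 7 entered the test, each by its brightest probe (OVAR-DQA1 by the mid-transcript probe). All 7 differences were below 0, with a median of -0.15, and 0 of the 7 had an unadjusted p under 0.05 in limma. OVAR-DQA1 and OVAR-DQA2 entered by mid-transcript probes of nearly the same sequence, at -0.08 and -0.05. Their differences are therefore not separate readings within the 7. Among all 11748 probes, 4996 differences were below 0 and the median was 0.04. Without E2 the list had 4 of 7 below 0 and a median of -0.07. The 3′ probe of OVAR-DQA1 and the second OVAR-DRB1 probe were the class II probes with differences above 0 among those tested, at 2.49 and 0.09.

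**Figure D3:**
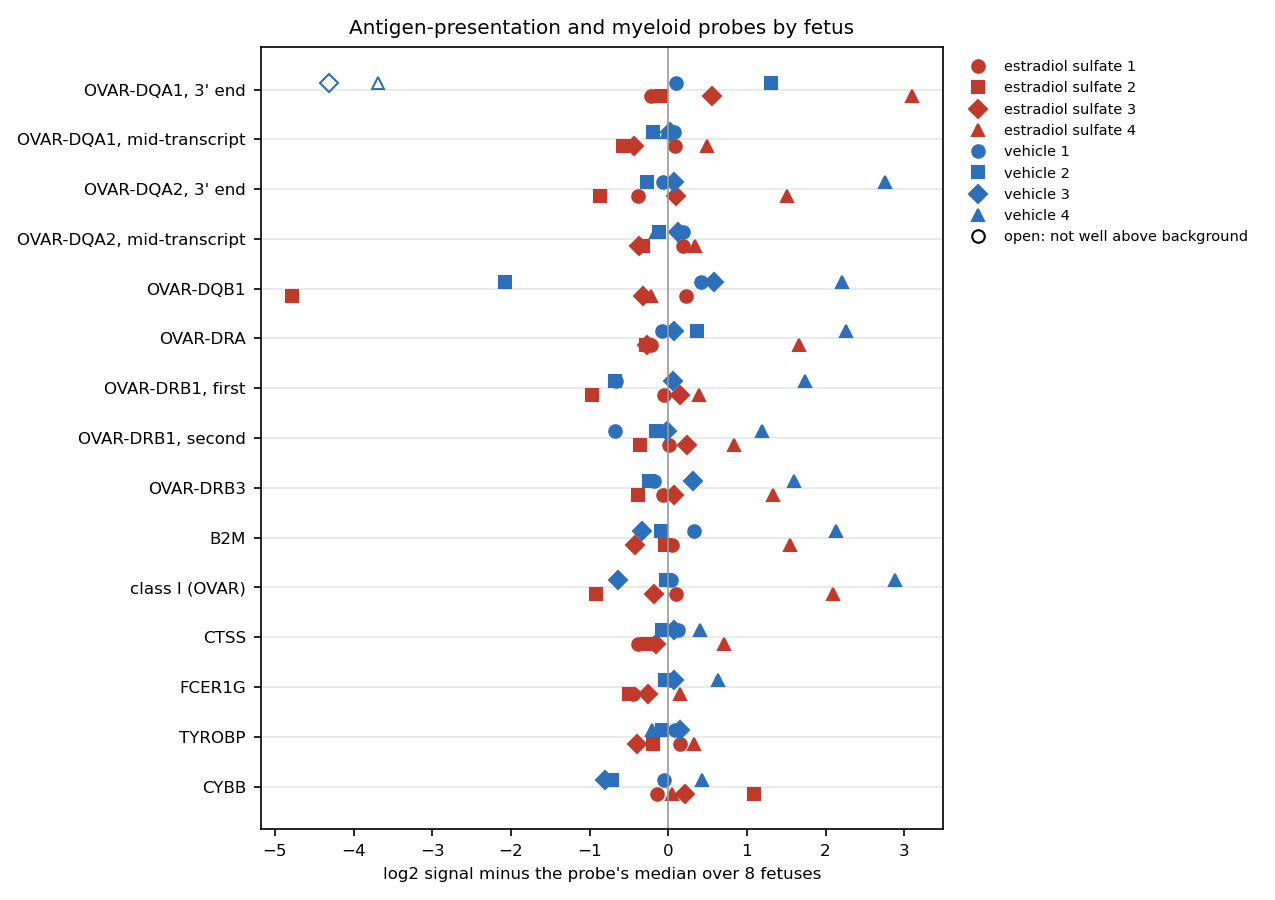
Log2 signal minus the probe's median over 8 fetuses (horizontal axis) for MHC class II, class I and myeloid probes, 1 marker shape per replicate number, with estradiol sulfate in red, vehicle in blue and open markers where the spot was not well above background. The triangles of E4 and V4 are the 2 rightmost for the 3′ probe of OVAR-DQA2, OVAR-DRA, both OVAR-DRB1 probes, OVAR-DRB3, B2M, class I, CTSS and FCER1G, and at the 3′ probe of OVAR-DQA1 the E4 triangle is the highest and the V4 triangle is open at the left.

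E4 and V4 were the 2 highest of 8 fetuses at 5 of the 13 probes of the class II list and at 5 of the 11 probes described as class II, an order noticed after the values were seen and given here as a description. At 6.5% of the 11734 probes with complete values these were the 2 highest. Among 15 probes described as MHC class I, which resemble one another in sequence, it was 14. B2M, the light chain of class I molecules, was at 6.10 in E4 and 6.68 in V4, with the other 6 fetuses from 4.13 to 4.88. PSMB8, an interferon-induced subunit of the immunoproteasome, was at -1.14 in E4 and -1.04 in V4, with the others from -2.71 to -2.53. CXCL10, a chemokine induced by interferons, was at 0.14 in E4 and 0.41 in V4, with the others from -4.74 to -2.32. Each of the 2 treatment groups thus held 1 fetus with high levels, and the treatment differences of B2M, PSMB8 and CXCL10 were -0.23 ± 0.58, -0.06 ± 0.45 and -0.15 ± 1.11 (SE). OVAR-DQA1 at its 3′ probe was highest in E4 but without signal in V4, the fetus with the highest OVAR-DRA, OVAR-DQB1 and B2M.

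Some markers of other cells were also highest in these 2 fetuses. CD3E, a chain of the T cell receptor complex, was at -1.74 in E4 and -0.47 in V4 at one probe, with the others from -3.90 to -2.36. CD3G was well above background in E4, V1 and V4 only. Other T cell genes had another order: CD5 was highest in E1 (-1.10 at its first probe) and LCK in E2 (-2.88), each with V4 second. In the list of T, NK, B and dendritic cell genes, 7 of 24 probes had E4 and V4 on top, and its summed linear level over 13 genes ranged from 1.44 to 2.23 in treated fetuses and from 1.72 to 3.84 in controls. Of 7 probes for red cell genes 2 had this order, but 1 of them, for CA1, was well above background in E4 only. HBB, the beta globin, was at 3.90 in E4 and 3.55 in V4 at one probe, with the others from 1.69 to 3.19, but at its other probe E2 (2.32) was above E4 (2.01). The part of blood and lymphoid cells in the class II levels was not tested.

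FCER1G was well above background in all 8 fetuses, and its lower mean after estradiol sulfate did not pass the test. The first probe read -0.10 in E1, -0.15 in E2, 0.10 in E3 and 0.50 in E4. The controls read 0.39 in V1, 0.32 in V2, 0.43 in V3 and 0.99 in V4. Of the treated fetuses 3 lay below all 4 controls, and E4 lay above 3 controls, so the groups overlapped. The difference was -0.44 ± 0.20 (SE; limma unadjusted p = 0.0503, adjusted p = 0.552; exact permutation p = 0.114). The second probe, 1 base away, gave -0.45 ± 0.21 (SE; limma adjusted p = 0.576). Without V4 the first probe's difference was -0.29. FCER1G followed the order described above, with V4 highest and E4 second, but its range over the 8 fetuses was only 2.19-fold. Nearest to it in profile, after its own second probe at 0.04, were the ribosomal protein genes RPL6 and RPS12, at distances of 0.10 and 0.12.

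The receptors that use the gamma chain, and its relatives, gave small differences for the most part. TYROBP, the related ITAM adaptor, ranged from -0.19 in E3 to 0.53 in E4 and differed by -0.01 ± 0.18 (SE) at its first probe. FCGR1A, the high-affinity IgG receptor that needs the gamma chain, was low but well above background in all 8 fetuses, from -4.69 in V1 to -3.57 in V4, and differed by 0.02 ± 0.27. FCER1A, the IgE-binding alpha chain, passed the background flag in 3 fetuses of each group and differed by -0.75 ± 0.36 (limma adjusted p = 0.584). MS4A2, the beta chain of the mast cell IgE receptor, was well above background in 0 of 8. FCGR2B, the inhibitory IgG receptor, was so in E3 only. The C-type lectin receptors CLEC7A and CLEC4E were measured in 7 and in 6 fetuses at 1 probe each, with differences of 0.08 ± 0.34 and 0.24 ± 0.18, and CLEC6A was measured in 2. The second CLEC4E probe was measured in 4 treated fetuses and 1 control, at -5.11 to -4.64 in treated and -5.52 to -5.08 in control fetuses. It passed the signal filter through the treated group, so no test of it is given. CD247, the zeta chain of T and NK cells and a relative of the gamma chain, had its lowest values at its first probe in V4 (-2.34) and E4 (-1.89), the fetuses with the highest CD3E. At its second probe V4 was again lowest (-2.71), but E2 (-2.03) lay below E4 (-1.18). Of 11 genes of this list on the array 8 were tested, 3 with differences above and 5 below 0, with a median of -0.18 and 0 at an unadjusted p under 0.05, each gene by its brightest probe.

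CYBB was measured in all 8 fetuses by the gp91-phox probe alone. That probe read -2.83 in E1, -1.59 in E2, -2.47 in E3 and -2.63 in E4, and -2.74, -3.40, -3.49 and -2.26 in V1 to V4. E2 was the highest, and the groups overlapped. The difference was 0.59 ± 0.33 (SE; limma adjusted p = 0.646; exact permutation p = 0.229), and 0.33 both without E2 and with normexp and quantile normalization. The 2 partial-cds probes were well above background in E2 only, at -5.28 and -5.24, the same fetus that was highest at the gp91-phox probe. No difference is given for them, since every control was below that flag. E4 and V4 did not stand out for CYBB as they did for class II: V4 came after E2, but E4 lay below E2, V4 and E3, and the lowest fetuses were V2 and V3. AGRP and GHRH, 2 markers of arcuate neurons, had the same extremes, with V2 and V3 not well above background. AGRP at its first probe was 1.18 in E2, the highest, and -6.17 and -5.56 in V2 and V3, the lowest. GHRH was 0.35 in E2 and -5.59 and -5.38 in V2 and V3. They are only 2 of the 8 hypothalamic genes on the array. GNRH1 had another split, being well above background in 3 fetuses of each group. NPY and POMC, measured in all 8 fetuses, were not compared, so no common pattern of arcuate genes can be read from AGRP and GHRH. The part of the dissected region in the CYBB levels was not tested. The nearest profiles to the gp91-phox probe were CYP11A1 at 0.22, ADCYAP1 at 0.25 and PC1 at 0.25.

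Of the oxidase's other parts, CYBA, the p22-phox partner without which CYBB is unstable, was even across fetuses, from -1.44 in E1 to -0.77 in E4, with a difference of -0.02 ± 0.17 (SE). RAC1, the small GTPase that activates the complex, ranged from 3.27 to 3.67. NOX1, a homologue typical of colon epithelium, passed the background flag in all 4 treated fetuses and no control at one probe, with levels from -5.89 to -5.05 in treated and -7.28 to -5.92 in control fetuses. It passed the signal filter only through the treated group, so no test of it is given, and its second probe was not well above background in any fetus. NOX4 passed the background flag in 3 treated fetuses and no control at one probe. More probes passed that flag on most treated arrays than on the control arrays. The share of all probes with the flag patterns of NOX1 and NOX4 was not counted. Groups that did not overlap, as at this NOX1 probe, were found at 5.92% of tested probes. The first NOX5 probe was measured in all 8, from 1.48 in V4 to 3.15 in V1, with a difference of 0.00 ± 0.38. Of 6 oxidase genes on the array 5 entered the fit, 2 above 0 (CYBB and NOX1) and 3 below (CYBA, RAC1 and NOX5), with a median of 0.00. NOX1 is thus among the 5 only through the treated group, and no result for the list is drawn from the counts or the median. In limma 0 of the 4 other than NOX1 had an unadjusted p under 0.05. Without E2, 0 of the 5, NOX1 included, were below 0.

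**Figure D4:**
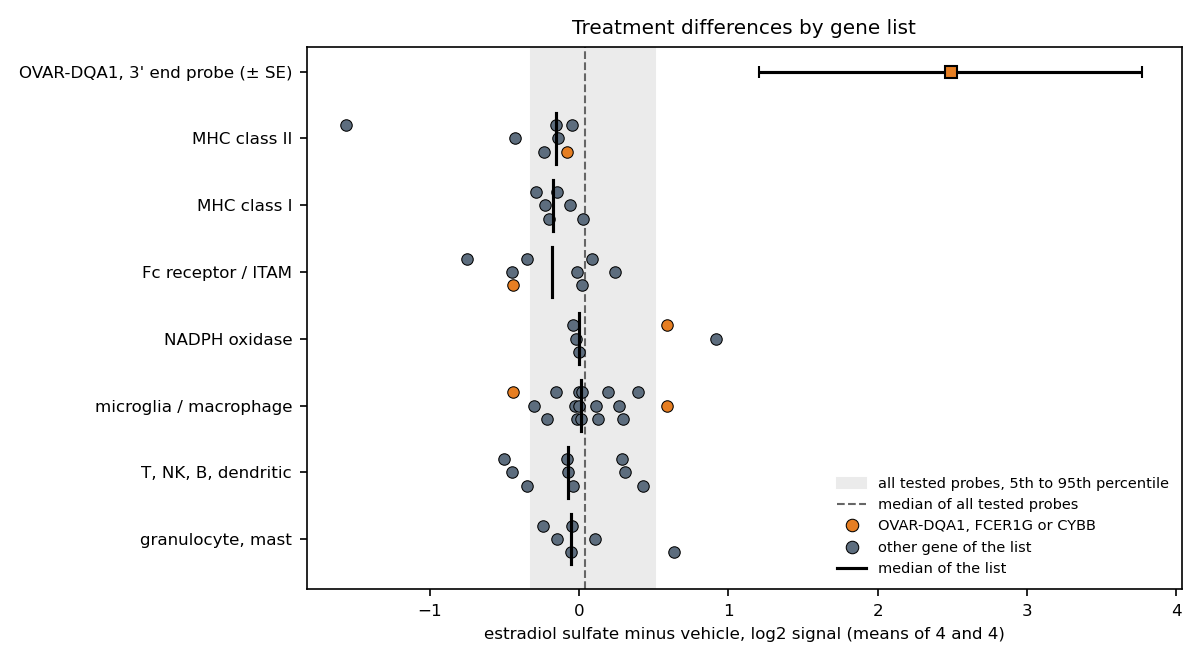
Estradiol sulfate minus vehicle in log2 signal (horizontal axis) for each tested gene of 7 lists, 1 point per gene at its brightest probe, with the list median as a black bar and the 3′ probe of OVAR-DQA1 with its SE on top. The grey band spans the 5th to 95th percentile of all tested probes (-0.33 to 0.51), and the list medians lie between -0.18 and 0.01. The oxidase list includes NOX1, which passed the signal filter only through the treated group.

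Microglial and macrophage genes as a whole showed no common direction. Of 63 names in the list 19 were on the array and 17 were tested, 9 above and 8 below 0, with a median of 0.01 and 0 at an unadjusted p under 0.05. The summed linear level of the list ranged from 18.2 to 28.2 in treated fetuses and from 20.3 to 24.8 in controls. FCER1G and CYBB, with differences of -0.44 and 0.59, were at the lower and upper ends of these 17. CD80, a costimulatory ligand of antigen-presenting cells, differed by 0.30 ± 0.18 (SE). CD14, a coreceptor for bacterial lipopolysaccharide, differed by 0.11 ± 0.17, with all 8 fetuses between -2.02 and -1.26. None of the 7 member probes had groups that did not overlap, which 5.92% of tested probes had.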

How the data were processed

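Total RNA of 8 fetal hypothalami, stored for 7 years per the labels' protocols, was labelled with Cy3 and hybridised to 1-colour Agilent sheep arrays. The authors deposited scanner files of intensity with quality flags (Feature Extraction 10.1.1.1, per the file headers) and a table of log2 values. Compared column by column, that deposited log2 table is the log2 processed signal minus a constant per array.

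Here log2 of the processed intensity (already background-corrected in the scanner output, outlier spots left out, spots of a probe averaged) was set relative to each array's 75th percentile. Of 15008 probes, 11748 were well above background on at least 4 arrays and were tested with limma 3.58.1 (R 4.3.3), Benjamini-Hochberg over all of them, threshold 0.05. Levels at single probes were also tested by exact permutation and Fisher's exact test (SciPy 1.17.1). Gene names came from the array and its accessions through RefSeq's sheep table, for 1606 probes of 992 names. The limma step was tested on simulated data. Alternatives were other scalings, background models, filters, the deposited values, a replicate block and leaving out each fetus.

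The genes and lists were chosen with earlier results of these data known. Genes named were all members and all array-named genes of the class II, oxidase and Fc receptor lists. From other lists up to 3 were named by smallest p. Further genes, such as CD14, IGHM and GNLY, were named outside that rule with their values known. The labels state separate fetuses. The number of arrays limits the precision.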

Additional observations from a re-analysis of the deposited data

Results flagged for a closer look

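In 54 probes checked in both groups (108 groups of 4 fetuses), 11 groups held 1 fetus set apart. Its gap to its nearest neighbour, as a share of the group's range, exceeded Dixon's 95% limit. For independent groups chance gives about 1 in 20. These groups were not independent, since some probes read 1 site and the same fetuses recur, so the 11 are not weighed against that rate. In FCER1G the fetus set apart was V4, with a gap of 0.834 of the range at the first probe and 0.894 at the second. In OVAR-DQA2 it was V4 at the 3′ probe (0.890), and in OVAR-DRA it was E4 (0.962). In OVAR-DQB1 it was E2, at -2.87 against 1.61 to 2.14 in the other treated fetuses (0.893). In PSMB8 E4 stood apart among the treated fetuses (0.943) and V4 among the controls (0.924). In GNLY, whose probes were added after their values were seen, it was E4 at -3.18 (0.906), the other 3 treated fetuses being not well above background. In NOX5 it was V4 at the second probe (0.934). The remaining flags, NOX4 in E1 (0.843) and FCGR2B in V1 (0.910), are at spots not well above background.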

How the results depend on the processing

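The count of probes past an adjusted p of 0.05 was 0 in limma under all 17 alternatives. The count at an unadjusted p under 0.05 was 1064 as reported, 2104 without the filter on dim probes, 693 after quantile normalization and 689 without E2. For the OVAR-DQA1 3′ probe the difference kept its sign and missed the threshold under 16 alternatives, from 1.38 (normexp with quantile normalization) to 3.47 (without V2). It had no value under the filter of signal on all 8 arrays, which the probe fails. The mid-transcript probe turned to 0.077 without E2 and 0.03 without E3, and leaving out 1 fetus at a time gave -0.28 to 0.077. FCER1G stayed between -0.58 and -0.29, and CYBB between 0.33 and 0.83, under 17 alternatives each. The share of fetuses with signal at the 3′ probe was 50 percentage points higher after treatment as reported and 33.3 to 66.7 when 1 fetus was left out, and another background flag gave the same 4 against 2.

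Same-numbered fetuses deviated from their group means with correlations of 0.24, -0.01, 0.19 and 0.25 over 11734 probes. E1, E3 and E4 each correlated best with the control of the same number, but E2 correlated best with V4. The labels do not name the twins and number 2 had no such likeness, so the numbers were not taken as pairs in the main fit. With the replicate block the differences were 2.49 (3′ probe), -0.08 (mid-transcript), -0.44 (FCER1G) and 0.59 (CYBB), with limma's adjusted p from 0.426 to 0.923. The block gave 0 calls, and 1158 probes at an unadjusted p under 0.05. For FCER1G it lowered the SE from 0.20 to 0.12 and limma's unadjusted p from 0.0503 to 0.00775, with an adjusted p of 0.426.

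Counts over gene lists under left-out fetuses and scalings were chosen after seeing the data. Genes below 0 numbered 4 to 7 of 7 for class II, 4 to 7 of 8 for the Fc receptor list, 0 to 3 of 5 for the oxidase and 4 to 11 of 17 for microglia.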

Other observations

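GNLY, which encodes granulysin of cytotoxic lymphocyte granules, was chosen after its values were seen. At probe A_70_P050991 it was at -3.18 in E4, -4.94 in V1 and -0.86 in V4, and not well above background in the other 5 fetuses. Another GNLY probe, A_70_P050992, was also well above background in 1 treated fetus and 2 controls. Of 2 further GNLY probes, A_70_P024302 was well above background in all 8 fetuses, from -3.09 to -2.42, and A_70_P024301 in none. IGHM, the heavy chain of IgM made by B cells, ranged at probe A_70_P002936 from -3.70 in E1 to 1.17 in V4, with E4 second at -0.08.

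The mRNA of AGRP, the appetite peptide of arcuate neurons, also had signal in some fetuses only, but in a different set. Its first probe was at -0.35, 1.18, 0.47 and -2.11 in E1 to E4 and at -0.66, -6.17, -5.56 and -3.72 in V1 to V4. V2 and V3 were not well above background there, whereas V3 and V4 were not at the 3′ probe of OVAR-DQA1. The difference for AGRP was 3.82 ± 1.16 (SE; limma adjusted p = 0.445).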
